A study of Homo sapiens with 3 samples.

Results

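The genes described here encode the plasminogen activators, their receptor and an inhibitor, the cell-surface complex that binds plasminogen, and tissue factor with its inhibitors. They are PLAT, PLAU, PLAUR, SERPINE2, F3, TFPI, TFPI2, ANXA2 and S100A10, 9 of the 22464 genes in the deposited table, and each was found there once by its symbol. These genes were chosen by name with their levels in these libraries already known, so their differences are a description and support no test. All 9 passed the filter on low values, a mean of at least 1 FPKM over the 3 libraries (FPKM is fragments per kilobase of gene, scaled to library size), and each was above 1 FPKM in every library. That filter kept 11198 of all genes.

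The cells were SK-Hep-1, an established human line derived from a liver adenocarcinoma, with 1 library for each of 3 groups. The labels call shNC the negative control. The sh1089-1 and sh1089-2 lines were stable knockdowns made with lentivirus, both aimed at LINC01089, a long noncoding RNA whose own level was not analysed here. No untreated parental line was among the samples, and whether each line is a pool or a clone is not given in the sources used here.

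Plasminogen is a circulating zymogen that tissue and urokinase plasminogen activators cut into plasmin, a protease that dissolves fibrin and degrades matrix. Urokinase acts while held at the cell surface by its receptor, and serpins trap both activators in covalent complexes. Tissue factor, the membrane receptor for coagulation factor VII, starts the clotting cascade, and Kunitz-type inhibitors restrain it. Endothelial cells are known for making tissue plasminogen activator, and many tumour cells for urokinase, its receptor and tissue factor.

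Reads behind each value were recovered from the steps between FPKM values. The library totals were 10698480, 9528312 and 8359832 reads. Here and below, 3 values in a row stand in the order shNC, sh1089-1, sh1089-2. The labels give liver as the tissue. Of 10 hepatocyte markers chosen, 7 were found once by symbol, so ALB, APOB and TF were not assessed. Of these 7, only SERPINA1 passed the filter. APOA1, TTR, HP and FGB were at 0 in every library, and the summed level was 4.70 to 8.12 FPKM. Of 10 endothelial markers, 9 were found, all but KDR. Only ROBO4 passed, with a sum of 2.25 to 2.76 FPKM, and PECAM1 and CDH5 did not exceed 0.0197 FPKM. The 8 immune markers found, of 10 chosen, summed to 2.63 to 2.73 FPKM. The mesenchymal list summed to 977, 1218 and 1509 FPKM, of which VIM alone made up 922, 1171 and 1445 FPKM. Its other members did not share 1 direction. Of 7 tested, 1 was at least 1.5-fold higher (THY1) and 1 lower (S100A4) in sh1089-1, where 5.27% and 5.83% of all tested genes were. In sh1089-2, 3 were higher (VIM, FN1, THY1) and 2 lower (LUM, S100A4), beside 4.89% and 5.63% of all tested genes. The list medians were -0.28 and 0.06 on the log2 scale. Its part in the differences below was not tested. In bulk RNA, fewer cells of a type and less RNA per cell cannot be told apart.

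With 1 library a group there was no spread between replicates and no test. Each ratio below is a ratio of FPKM with a 95% Clopper-Pearson interval from the recovered reads, which covers counting error only. A gene was counted as higher or lower where log2(FPKM + 1) differed by at least the log2 of 1.5 or of 2. Both hairpin comparisons share the shNC library, so they are not independent.

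PLAT was higher in both hairpin libraries, and more so with sh1089-2. F3 was higher in both by a similar ratio, while SERPINE2 was lower in both. The other 6 genes differed from shNC by less than 1.5-fold in each hairpin library. Past 1.5-fold in sh1089-1 were 2 of the 9 genes on the higher side and 1 on the lower, where 5.27% of all 11198 genes were higher and 5.83% lower. In sh1089-2 the same 3 genes passed, 2 higher and 1 lower, against 4.89% and 5.63% of all genes. At 2-fold, PLAT was higher and SERPINE2 lower in sh1089-1 (1.38% and 1.51% of all genes), and PLAT alone was higher in sh1089-2 (1.63% higher and 1.61% lower). Passing 1.5-fold in both hairpin libraries were 3.08% of all genes on the higher side and 2.79% on the lower. The median difference of the 9 genes was 0.11 in sh1089-1 and 0.25 in sh1089-2 on the log2 scale, beside -0.03 and -0.04 over all genes.

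**Figure D1:**
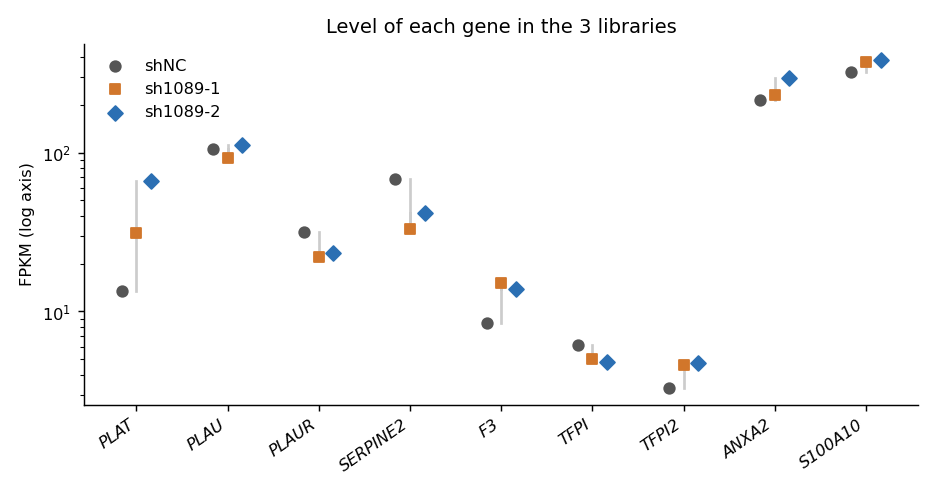
FPKM on a log axis for each of the 9 genes, with 1 point per library (circle shNC, square sh1089-1, diamond sh1089-2) and a grey line over their range. PLAT spans 13.4 to 66.6 FPKM, while S100A10 and ANXA2 are the highest genes in every library.

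PLAT encodes tissue plasminogen activator. Its level was 13.4, 31.2 and 66.6 FPKM, on 952, 1967 and 3682 reads. The shNC library was lowest and sh1089-2 highest. The ratio to shNC was 2.32 (2.15 to 2.51) in sh1089-1 and 4.95 (4.61 to 5.32) in sh1089-2. Only 0.438% of all genes lay at least as far from shNC in sh1089-2, where PLAT held place 21 among the higher genes, and 1.74% did in sh1089-1, where it held place 84. Ranked by level among the tested genes, PLAT held places 3160, 1454 and 608.

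The hairpin libraries also differed from each other at PLAT, with sh1089-2 at 2.13 times sh1089-1 (2.02 to 2.25). It was the only one of the 9 genes past 1.5-fold or 2-fold in that comparison, and none was lower. Over all genes, 2.47% were higher and 2.30% lower by 1.5-fold, and 0.839% and 0.884% by 2-fold. The difference between the hairpins at PLAT, 1.07 on the log2 scale, was close in size to that between sh1089-1 and shNC, 1.16.

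PLAU encodes urokinase, the activator that works at the surface of migrating cells. It stood at 105, 92.9 and 112 FPKM, on 3326, 2609 and 2763 reads. The hairpin libraries lay on either side of the control, with ratios of 0.881 (0.836 to 0.927) and 1.06 (1.01 to 1.12), both well inside 1.5-fold. C10orf55, a gene on the opposite strand that overlaps PLAU, had 53.2, 47.3 and 56.1 FPKM. The libraries were strand-specific, but the sources used here do not say whether counting used the strand. Without it, reads of the pair cannot be told apart.

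The makeup of the activator mRNA pool differed between the libraries. Summed over both genes the activators came to 119, 124 and 179 FPKM, of which PLAT made up 11.3%, 25.1% and 37.3%. The ratio of PLAT to PLAU was 0.128 (0.119 to 0.137) in shNC, 0.336 (0.317 to 0.356) in sh1089-1 and 0.594 (0.565 to 0.624) in sh1089-2. These 3 intervals do not overlap. The shares and ratios depend on the length each gene is divided by. With the median coding transcript as that length, PLAT to PLAU was 0.313, 0.826 and 1.46.

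PLAUR encodes the urokinase receptor, a lipid-anchored protein that binds urokinase and signals through integrins. Its level was 31.5, 22 and 23.4 FPKM, on 1501, 934 and 873 reads. Both hairpin libraries were below shNC and close to each other, by 1.43-fold (1.32 to 1.55) and 1.34-fold (1.24 to 1.46), short of the 1.5-fold threshold. The ratio of PLAU to PLAUR was 3.35 in shNC, 4.22 in sh1089-1 and 4.78 in sh1089-2.

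SERPINE2 encodes protease nexin-1, a serpin that traps thrombin, urokinase and tissue plasminogen activator. It lies on chromosome 2 (223975112 to 224039319, GRCh38). It stood at 68.4, 33.0 and 41.4 FPKM, on 6554, 2814 and 3102 reads. Both hairpin libraries were below the control, by 2.07-fold (1.98 to 2.17) and 1.65-fold (1.58 to 1.72). The level in sh1089-2 was 1.26 times that in sh1089-1 (1.19 to 1.32).

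PLAT was higher and SERPINE2 lower than in shNC, and their ratio was 0.197 (0.183 to 0.210) in shNC, 0.946 (0.893 to 1.00) in sh1089-1 and 1.61 (1.53 to 1.69) in sh1089-2. That is 4.81 and 8.17 times the control ratio.

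**Figure D2:**
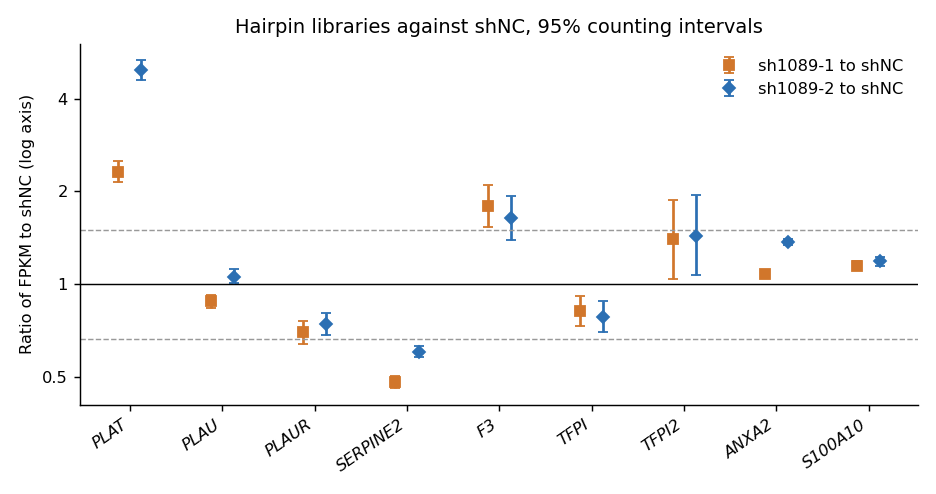
Ratio of FPKM to shNC on a log axis for each gene in sh1089-1 (squares) and sh1089-2 (diamonds), with 95% counting intervals as bars, a solid line at 1 and dashed lines at 1.5-fold. PLAT and F3 lie above the upper dashed line and SERPINE2 below the lower one in both libraries.

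ANXA2 and S100A10 encode annexin A2 and its light chain p11, which form a heterotetramer that holds plasminogen and tissue plasminogen activator at the cell surface. They were the most abundant of the 9 genes in every library. ANXA2 had 215, 232 and 295 FPKM, on 20293, 19528 and 21728 reads. The sh1089-2 library stood apart, at 1.37 times shNC (1.34 to 1.40), while sh1089-1 was at 1.08 (1.06 to 1.10). S100A10 had 321, 370.3 and 381 FPKM, and here both hairpin libraries were alike, at 1.15 (1.12 to 1.19) and 1.19 (1.15 to 1.23). The S100A10 values are whole reads at a length of 2024 bases (6952, 7142 and 6448 reads) and also at 1012 bases (3476, 3571 and 3224 reads), where the annotated exons span 1543, and the smaller reads widen the intervals to 1.10 to 1.21 and 1.13 to 1.25. The ratio of S100A10 to ANXA2 was 1.49, 1.59 and 1.29.

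ANXA2 has processed pseudogenes that resemble its mRNA closely, so its value is uncertain. ANXA2P2 was listed at 118, 123 and 153 FPKM, on 1293, 1196 and 1305 reads, and ANXA2P1 at 0.303, 0.340 and 0.258 FPKM. ANXA2P2 followed the order of ANXA2 over the 3 libraries. The next most abundant annexins were ANXA5 and ANXA1. ANXA5, a phosphatidylserine-binding relative, had 177, 125 and 145 FPKM, and ANXA1 had 121, 136 and 117. None of 8 tested annexins passed 1.5-fold in either hairpin library. Of all genes, 5.27% were higher and 5.83% lower in sh1089-1, and 4.89% and 5.63% in sh1089-2. Of 9 tested S100 genes only S100A4 was lower in both, with 14.4, 7.21 and 7.84 FPKM, and none was higher. In both, 2.79% of all genes were lower and 3.08% higher. In sh1089-2, S100A3 was lower too, by a difference of -0.83 from shNC on the log2 scale, and is named after its values were seen. The most abundant S100 genes, S100A6 and S100A11, had 1150.1, 1336 and 1196 and 791, 737 and 789.6 FPKM.

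F3 encodes tissue factor. It lies on chromosome 1 (94529225 to 94541800). It stood at 8.49, 15.2 and 13.9 FPKM, on 262, 418 and 336 reads. Both hairpin libraries were above the control and within counting error of each other. The ratios to shNC were 1.79 (1.53 to 2.10) and 1.64 (1.39 to 1.94), and that of sh1089-2 to sh1089-1 was 0.916 (0.791 to 1.06). The lower bound in sh1089-2 lies under 1.5. A length of 1443 bases in place of 2886 also gives whole F3 reads (131, 209 and 168), and the intervals would then be 1.43 to 2.25 and 1.30 to 2.08. The annotated exons span 2875 bases.

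TFPI, the inhibitor of the tissue factor and factor VII complex, came next below F3 in FPKM. It had 6.11, 5.01 and 4.81 FPKM on 766, 559 and 471 reads. Both hairpin libraries lay below shNC, 1.22-fold (1.09 to 1.36) and 1.27-fold (1.13 to 1.43). TFPI2, a relative found mainly in the matrix that inhibits plasmin more strongly than tissue factor, was above shNC in both, on few reads. It had 3.29, 4.59 and 4.75 FPKM on 86, 107 and 97 reads, with ratios of 1.40 (1.04 to 1.88) and 1.44 (1.07 to 1.95). The ratio of F3 to TFPI was 1.39 (1.20 to 1.60) in shNC, 3.04 (2.67 to 3.45) in sh1089-1 and 2.90 (2.51 to 3.34) in sh1089-2, which is 2.19 and 2.09 times the control. The ratio of TFPI2 to TFPI was 0.538 (0.425 to 0.673), 0.917 (0.739 to 1.13) and 0.987 (0.785 to 1.23).

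**Figure D3:**
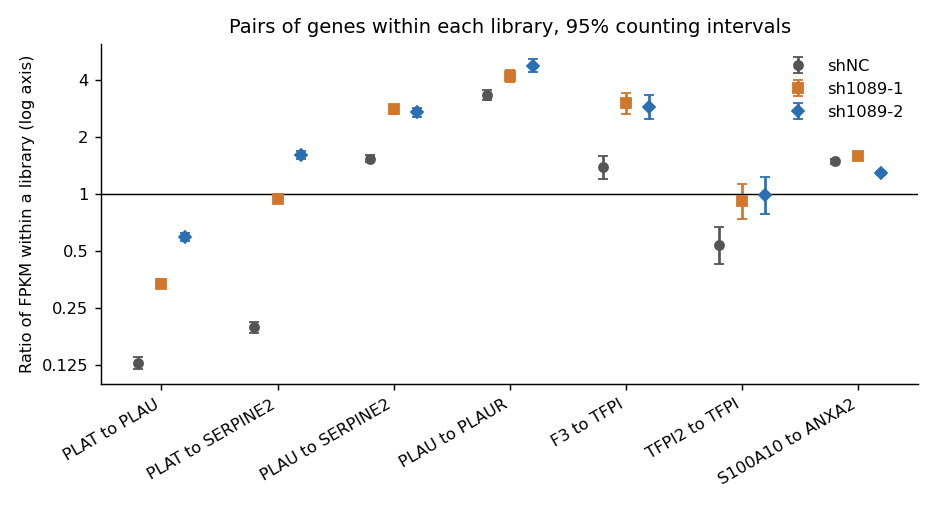
Ratio of FPKM between pairs of genes within each library on a log axis (circle shNC, square sh1089-1, diamond sh1089-2), with 95% counting intervals as bars and a line at 1. PLAT to SERPINE2 spans 0.197 to 1.61, and F3 to TFPI is 1.39 in shNC and at least 2.90 in the hairpin libraries.

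Levels between genes depend on the length each is divided by. The fitting length nearest to all annotated exons of a gene was taken, 8824 bases for ANXA2 and 11714 for TFPI. The median coding transcript in GENCODE 29 has 1444 and 2384. Not every length matched the exons, with 2024 against 1543 for S100A10 and 2444 against 2682 for TFPI2. By FPKM the order in shNC was S100A10, ANXA2, PLAU, SERPINE2, PLAUR, PLAT, F3, TFPI and TFPI2. In sh1089-1 PLAT passed PLAUR, and in sh1089-2 it passed SERPINE2 as well. Divided by the median coding transcript in place of that length, an alternative added after the data were seen, ANXA2 led S100A10 in shNC with 1314 against 715 on the FPKM scale, and TFPI led F3 with 30 against 11.8. With the smaller fitting lengths S100A10 would be at 357 and F3 at 5.88, and both orders hold. SERPINE2 led PLAU on that scale in every library, with 281 against 125, 136 against 110 and 170.4 against 133. In sh1089-2 PLAT stood above both, at 194. F3 to TFPI was then 0.391, 0.856 and 0.816, and PLAT to PLAU was 0.313, 0.826 and 1.46. Ratios of the same gene between libraries do not change with length.

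The sequences upstream of the gene starts are shown for SERPINE2 and F3, which with PLAT were past 1.5-fold in both hairpin libraries, and for PLAUR and ANXA2, which carry AP-1 letters as F3 does. RefSeq windows on GRCh38.p14 were found for 8 of the 9 genes, all but PLAT, 10 windows in all. For the genes shown, the 250 bases before each start are printed. The TFPI2 window also carries AP-1 letters and is not printed. Capitals mark matches on either strand to AP-1 (TGANTCA), the TATA box (TATAAA), the E-box (CACGTG) and the CCAAT box (CCAAT). The last 2 were added after the windows had been read. The GC box (GGGCGG) was searched too and is left in lower case. All the printed windows are on the minus strand. They are F3 at chr1:94541760-94542009, PLAUR at chr19:43670170-43670419, ANXA2 at chr15:60397987-60398236, and SERPINE2 at chr2:224031479-224031728 for the inner start and chr2:224038641-224038890 for the outer start.
F3: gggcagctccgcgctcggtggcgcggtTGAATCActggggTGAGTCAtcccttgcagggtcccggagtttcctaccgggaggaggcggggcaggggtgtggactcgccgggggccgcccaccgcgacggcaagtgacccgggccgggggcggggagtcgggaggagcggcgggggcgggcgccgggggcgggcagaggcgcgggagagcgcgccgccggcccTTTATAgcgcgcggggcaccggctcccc
PLAUR: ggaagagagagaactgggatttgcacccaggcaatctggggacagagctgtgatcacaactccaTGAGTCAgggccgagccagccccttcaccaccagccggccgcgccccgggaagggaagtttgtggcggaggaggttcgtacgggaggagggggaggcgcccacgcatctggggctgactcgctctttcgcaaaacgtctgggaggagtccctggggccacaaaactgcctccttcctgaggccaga
ANXA2: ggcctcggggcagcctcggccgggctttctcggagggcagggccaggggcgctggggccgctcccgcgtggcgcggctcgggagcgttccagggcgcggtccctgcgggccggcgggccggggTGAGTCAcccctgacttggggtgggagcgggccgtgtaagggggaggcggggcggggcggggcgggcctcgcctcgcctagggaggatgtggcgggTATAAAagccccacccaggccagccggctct
SERPINE2 inner start: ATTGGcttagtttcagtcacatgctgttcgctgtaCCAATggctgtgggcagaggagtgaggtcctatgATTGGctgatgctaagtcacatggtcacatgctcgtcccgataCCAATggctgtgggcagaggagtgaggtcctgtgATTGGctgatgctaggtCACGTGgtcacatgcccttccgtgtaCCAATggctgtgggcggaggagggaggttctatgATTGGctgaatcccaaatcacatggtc
SERPINE2 outer start: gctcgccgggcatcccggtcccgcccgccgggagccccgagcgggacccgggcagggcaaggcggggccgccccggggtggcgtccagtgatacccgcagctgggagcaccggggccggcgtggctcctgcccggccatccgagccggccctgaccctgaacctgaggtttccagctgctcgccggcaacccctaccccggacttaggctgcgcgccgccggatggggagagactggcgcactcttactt

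AP-1 letters were found in 4 of the 10 windows, those of F3, PLAUR, TFPI2 and ANXA2, and in 6.57% of 35116 windows of all genes. F3 held 2 matches, at 223 and 210 bases before the start, and 0.402% of all windows held 2 or more. Any part of the AP-1 letters in the differences from shNC was not tested. The inner SERPINE2 window held 7 CCAAT matches in tandem on alternating strands and 1 E-box. A CCAAT match occurred in 32.0% of all windows, 7 or more matches in 0.0199%, and an E-box match in 6.34%. The outer SERPINE2 window held 2 GC boxes and no other match. GC boxes were found in 7 of the 10 windows, the inner SERPINE2 window among them, and in 42.6% of all windows. TATA box letters lay 28 bases before the start of F3 and 31 before that of ANXA2, and in 10.7% of all windows. Neither TEAD letters (GGAATG, 11.9% of windows) nor CRE letters (TGACGTCA, 1.65%) were found in the 10 windows. A match describes the letters only, and which SERPINE2 start was used was not analysed here.

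The rest of the plasminogen system was followed through a list of 32 zymogens, inhibitors, binding proteins and clearance receptors. PLG, the gene of plasminogen itself, had 0 reads in every library, which allows up to 0.280, 0.315 and 0.359 RPM (reads scaled to library size). Of 18 tested genes in the list, 1 was past 1.5-fold in both hairpin libraries, on the higher side, where 3.08% of all genes were. It was KRT18, a keratin, with 739, 1244 and 1203 FPKM. KRT8, its partner and a reported cell-surface plasminogen receptor, had 619, 889 and 893 FPKM. ENO1, a glycolytic enzyme that also binds plasminogen, had 791, 916 and 879. The next pair of genes was chosen after their values were seen. LRP1, the receptor that clears activator and serpin complexes, was at 11, 9.73 and 12.2 FPKM. SERPINB8 was the one lower in sh1089-2, at 2.26, 1.52 and 0.897 FPKM. The list medians were 0.02 and 0.15 on the log2 scale.

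In the coagulation list, which holds F3, TFPI and TFPI2, 13 of 26 listed genes were tested. Those past 1.5-fold in both hairpin libraries were F3 and GAS6, higher, and PROS1, lower, beside 3.08% and 2.79% of all genes. GAS6 and PROS1 encode related vitamin K-dependent proteins, both ligands of TAM receptors, and protein S is also an anticoagulant cofactor of TFPI and activated protein C. GAS6 had 18.3, 31.3 and 35.5 FPKM on 1179, 1796 and 1784 reads. PROS1 had 6.47, 3.01 and 3.49 FPKM on 377, 156 and 159 reads, below shNC by 2.15-fold (1.78 to 2.61) and 1.85-fold (1.54 to 2.24). PROCR, the endothelial protein C receptor, had 96.2, 82.9 and 92.3 FPKM, and THBD, thrombomodulin, chosen after its values were seen, had 4.55, 4.62 and 4.66. F5 and F7 were listed at 0 in each library. The list medians were -0.12 and -0.04.

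The list of receptors for thrombin and related proteases is mostly made of signalling genes, such as GNA12, GNA11 and ARHGEF1. Only F2R and F2RL1 of its 10 tested genes encode receptors. None of the 10 passed 1.5-fold in either hairpin library. Of all genes, 5.27% were higher and 5.83% lower in sh1089-1, and 4.89% and 5.63% in sh1089-2. The list also holds F2RL2, a coreceptor for thrombin, whose mean lay under the filter because of its low level in the hairpin libraries. It had 1.29, 0.154 and 0.105 FPKM on 47, 5 and 3 reads, a difference of -0.99 and -1.05 on the log2 scale, and is named after its values were seen. F2R, the main thrombin receptor, had 12.5, 8.80 and 11 FPKM, below shNC by 1.43-fold (1.24 to 1.64) and 1.14-fold (0.997 to 1.31). F2RL1, which tissue factor complexes and trypsin-like proteases cleave, rested on 42, 47 and 34 reads, too few to show a difference (ratio 1.26 in sh1089-1, 0.811 to 1.95). Of 15 tested urokinase receptor partners, which include PLAU and PLAUR, only ITGB3 was lower in both and none was higher. The shares of all genes were 2.79% lower in both and 3.08% higher. ITGB3, the beta3 integrin, had 2.64, 0.621 and 0.871 FPKM on 124, 26 and 32 reads. ITGB1, chosen after its values were seen, had 99.6, 68.1 and 68.7 FPKM, in the same order as PLAUR. Most abundant in that list were CAV1 (248, 265 and 278 FPKM) and ITGA3 (113, 117 and 127 FPKM).

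Of 9 tested serpins, 1 was past 1.5-fold in sh1089-1 (SERPINE2, lower), where 5.27% of all genes were higher and 5.83% lower. In sh1089-2, 1 was higher (SERPINA1) and 2 were lower (SERPINE2 and SERPINB8), where 4.89% of all genes were higher and 5.63% lower. SERPINA1, antitrypsin, chosen after its values were seen, had 4.69, 5.91 and 8.0 FPKM, and SERPINH1, a collagen chaperone, had 19.3, 23.7 and 17.3. Of 8 tested genes with Kunitz domains, 1 was lower in sh1089-1 (SPINT1) and 1 in sh1089-2 (SPINT2), none was higher and none passed in both. Of all genes, 5.83% were lower and 5.27% higher in sh1089-1, and 5.63% and 4.89% in sh1089-2. In both, 2.79% were lower and 3.08% higher. SPINT1 and SPINT2 were likewise chosen after their values were seen. SPINT1, an inhibitor of the HGF activator, had 2.11, 0.770 and 1.49 FPKM on 80, 26 and 44 reads, and SPINT2 had 2.15, 1.53 and 0.988.

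**Figure D4:**
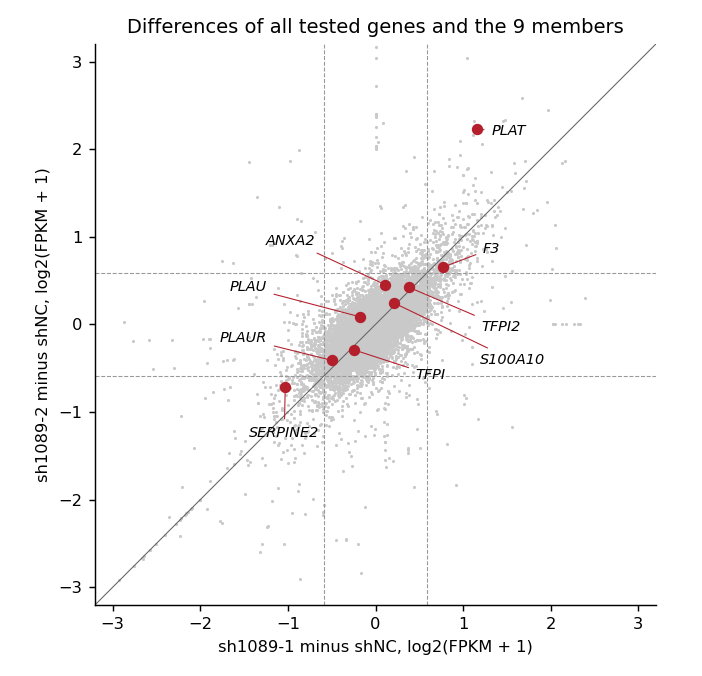
Difference from shNC in log2(FPKM + 1) for sh1089-1 (x axis) and sh1089-2 (y axis), in grey for the 11198 tested genes (11 lie outside the axes) and in red for the 9 genes, with dashed lines at 1.5-fold and a solid line where both differences are equal. Both axes share the shNC library, and PLAT lies above the solid line at 1.16 and 2.23.

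Genes with the most similar pair of differences were sought among 4022 genes with a symbol and a mean of at least 10 FPKM, as the Euclidean distance over the differences of sh1089-1 and sh1089-2 from shNC. Nearest to PLAT were HLA-DRA, an MHC class II gene, at 0.180 (5.79, 14.8 and 27.2 FPKM), INSIG1, a sterol feedback gene, at 0.350 (16.1, 32.4 and 64.4), and FASN, the fatty acid synthase, at 0.523 (70.2, 127 and 248). SERPINE2 had the cathepsin gene CTSB at 0.035 (386, 189 and 230.1 FPKM), the taurine transporter SLC6A6 at 0.039 and the cathepsin gene CTSL at 0.078. F3 had VOPP1, PRADC1 and TMPO within 0.036. PLAUR had JUNB, an AP-1 subunit, at 0.004 (30.4, 21.2 and 22.7 FPKM), then ATP6V1E1 and RRAS. PLAU was nearest to RETSAT, HADHA and MT-CO1, ANXA2 to AP2B1, ASXL1 and CALHM2, and S100A10 to ACADVL, MYO9B and VPS37B. Genes near the middle of the distribution have many close neighbours. TFPI and TFPI2 lay below the level for this search.

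Neighbours on the chromosome were compared as the 40 nearest tested coding genes, 20 on each side where available, chosen after the data were seen. Around SERPINE2 their median difference was -0.26 in sh1089-1 and -0.17 in sh1089-2, and around TFPI, on the same chromosome, -0.19 and -0.20. Around F3 it was -0.06 and -0.02, around PLAT -0.01 and 0.09, and around PLAUR 0.03 and -0.05. Around ANXA2 it was -0.13 and -0.12. The neighbours of SERPINE2 were below shNC by less than SERPINE2 itself (-1.03 and -0.71), while those of TFPI lay close to its own differences (-0.24 and -0.29). Of the 40 neighbours of PLAT, 4 were at least 1.5-fold higher in both hairpin libraries and 1 lower, beside 3.08% and 2.79% of all genes. The part of neighbours in any of these differences was not tested.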

How the data were processed

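RNA sequencing of 3 SK-Hep-1 lines gave 1 deposited table of FPKM values, computed by the authors per gene and library. Per the submitters' processing notes, FastQC, StringTie and build GRCh38 were used, without versions. Per the labels' protocols, mRNA was enriched from total RNA and libraries were strand-specific. The sources used here do not give the aligner, the annotation release or the use of strand in counting.

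Symbols were found for 20952 of 22464 identifiers, and 22444 are in GENCODE 29, which gave types, coordinates and lengths. Library totals came from the step between FPKM values of short genes. For 99.9% of 19219 genes above 0, a whole length made all 3 values whole reads, and the length nearest to GENCODE 29 was taken. It equalled the GENCODE 29 length for 61.9% of the 19219 genes and lay within 5% of it for 93.4%. For 2 of the 9 genes, F3 and S100A10, a smaller length fits too. No count test was run. The filter was a mean FPKM of at least 1, and the pseudocount 1, which understates changes of low genes. Named are the 9 genes, per other list up to 4 genes past 1.5-fold in both hairpin libraries and up to 3 of the highest mean FPKM, the 3 genes nearest in pattern, and PLG, F2R, F2RL1 and PROCR. Some genes under that rule are not reported here. All other genes named, markers and genes listed at 0 included, were chosen after their values were seen. The genes and lists were chosen with earlier results of these data known. Calculations used Python 3.11.15, pandas 2.3.3, numpy 2.4.6 and scipy 1.17.1, and were tested on simulated data. Alternatives covered the pseudocount, the filter and the scaling.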

Additional observations from a re-analysis of the deposited data

Results flagged for a closer look

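PLAU was below shNC in sh1089-1, by a difference of -0.18 in log2(FPKM + 1), and above it in sh1089-2, by 0.09. It is listed because the hairpin libraries lay on opposite sides of the control. With 1 library each, the difference between them was not tested, and both values are under 1.5-fold.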

How the results depend on the processing

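Counts among the 9 genes past 1.5-fold did not change under any alternative run: a pseudocount of 0.1, rescaling to TPM, setting the median ratio of all genes to 1, no filter, a mean FPKM of at least 5, or, added after seeing the data, the plain ratio of FPKM. The filter runs could not change these counts. All 9 genes pass the main filter, and the stricter one removes only TFPI2, which was within 1.5-fold. The shares of all genes past 1.5-fold did change. They ranged from 3.66% to 8.11% higher and 4.23% to 10.7% lower in sh1089-1, from 3.81% to 9.60% and 4.31% to 9.56% in sh1089-2, and from 1.08% to 7.49% and 1.68% to 4.96% between the hairpins. At 2-fold they ranged from 1.10% to 3.13% and 0.800% to 4.18%, from 1.43% to 4.02% and 1.00% to 3.78%, and from 0.235% to 3.34% and 0.392% to 2.63%. Among the 9 genes, 1 count at 2-fold changed. With the median ratio set to 1, the count in sh1089-1 was 1 gene (PLAT) in place of 2, because SERPINE2 came to lie just inside the threshold. Of 81 differences of single genes under the alternatives for pseudocount and scaling, 81 kept their direction and their side of 1.5-fold, and 6 moved by more than counting error, of PLAT, ANXA2 and S100A10. TPM scaling gave PLAT 2.35 in sh1089-2. TFPI2 does not pass a mean of 5 FPKM, so 8 genes were then tested. No paired analysis was possible because each group is 1 library, and no library could be left out for the same reason. Depth limits genes on few reads, such as TFPI2, F2RL1, ITGB3 (124, 26 and 32 reads) and SPINT1 (80, 26 and 44). The read counts of F3 and S100A10 are uncertain, since a smaller length fits each. A count of 0 allows up to 0.280 to 0.359 RPM.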

Other observations

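A gene of the same pathway that lay below the filter, chosen after its values were seen, is given as values. VTN, which encodes vitronectin, a ligand of the urokinase receptor, had 0.884, 0.661 and 0.126 FPKM in the order shNC, sh1089-1, sh1089-2, on 27, 18 and 3 reads.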
